A study of Triticum aestivum with 6 samples.

Results

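The change in the aleurone of bread wheat (Triticum aestivum, cultivar Banks) between 6 and 9 days post anthesis (DPA) was described from 2 RNA-seq libraries, the aleurone at 6 DPA and the aleurone at 9 DPA, out of 6 in the series. The other 4 libraries were the aleurone at 14 DPA and the starchy endosperm at 6, 9 and 14 DPA, and all grain was untreated. Per the labels, tissues were dissected by hand from fresh grain, and each preparation pooled seeds from several plants. Each tissue and stage has 1 pooled library, so every difference below is a difference between libraries with no replicate check, and no p-value is given. Whether a difference belongs to the stage or to the pool and its library cannot be told apart.

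The aleurone is the outer layer of the cereal endosperm. It arises from the same cells as the starchy endosperm when the endosperm becomes cellular, and it stays alive in the ripe grain, while the starchy endosperm fills with starch and storage protein and dies. In the germinating grain the aleurone answers gibberellin from the embryo by secreting the enzymes that break down these reserves. The stages compared here fall in early grain development, when the aleurone takes on its identity. Bread wheat carries several near-identical copies of most genes, so a short read often matches more than 1 transcript sequence.

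The files list 221925 transcript sequences by identifier, of which 93508 begin with TC and 128417 do not. No file gives a gene name for an identifier, and 0 of them matched the reference gene table used here. No gene, pathway or chromosome position is therefore named, known aleurone markers could not be looked up, and no transcript sequence was at hand to print. At most 2 identifiers per direction are given. Several sequences may stem from the same gene, so the numbers below are numbers of sequences.

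The 6 DPA aleurone library held 27150859 reads and the 9 DPA library 4549034, which made the first 5.97 times as deep. Unique reads were 52.2% of the total at 6 DPA and 45.1% at 9 DPA. The starchy endosperm libraries differed in the same way, with 30581013 reads at 6 DPA and 4104682 at 9 DPA, and unique shares of 52.9% and 42.1%. Depth and unique share thus moved with the stage in both tissues, and their part in the results was not tested. For the counts below, the 6 DPA aleurone reads were thinned at random to 4549034. Levels in RPM (reads scaled to the library total) or in RPKM (the same per kilobase of sequence, as deposited by the authors) use all reads. A count of 0 allows up to 3 reads, which is 0.110 RPM at 6 DPA and 0.659 RPM at 9 DPA in aleurone. Intervals cover counting error only.

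The labelled tissue was set against starchy endosperm with lists drawn from the 14 DPA libraries, which the comparison does not use. The 713 sequences at least 64-fold higher in starchy endosperm than in aleurone at 14 DPA held 0.271% of the aleurone reads at 6 DPA and 0.277% at 9 DPA. They held 5.82% and 5.25% of the starchy endosperm reads at the same stages. The opposite list, of 646 sequences 64-fold or more on the aleurone side, held 3.13% and 3.29% of the aleurone reads at 6 and 9 DPA, and 0.314% and 0.165% of the starchy endosperm reads. Both aleurone libraries therefore stood on the aleurone side of these lists, and the share of each list in aleurone was similar at 6 and 9 DPA. The lists contrast only aleurone and starchy endosperm, so RNA from other tissues of the grain could not be seen with them and was not tested.

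At equal depth the aleurone transcripts detected at 6 and 9 DPA were largely shared. Both libraries had reads for 86540 sequences, and these held 99.3% of the 6 DPA reads and 98.7% of the 9 DPA reads. Another 15247 sequences had reads at 6 DPA only and 21887 at 9 DPA only, with at most 107 and 116 reads each. Where either library had 50 reads or more, 12 sequences had no read at 9 DPA and 17 had none in the thinned 6 DPA library. Of these 17, 0 were without a read at the full 6 DPA depth. No abundant transcript was thus seen at 9 DPA alone.

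Most of the sequences compared kept their level within 2-fold. A sequence was compared when its higher library had 50 reads or more, equal to 11.0 RPM, and 21524 were. The ratio of 9 to 6 DPA lay within 1.5-fold for 46.8% of them and within 2-fold for 68.6%. The median log2 ratio was -0.07, the quartiles were -0.74 and 0.54, and the middle 90% ran from -2.11 to 1.68. Across these sequences the log2 read numbers of the libraries correlated at r = 0.611 (Spearman rho 0.630). This is a description of 2 libraries over sequences that share depth and reads and were kept by a minimum in either library.

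Sequences at least 4-fold apart after TMM scaling, with counts below 3 set at 3, were counted as higher or lower at 9 DPA. There were 2004, or 9.31% of the 21524. Of these, 762 (3.54%) were higher and 1242 (5.77%) were lower at 9 DPA. At 16-fold the balance was even, with 157 sequences at least 16-fold higher and 157 at least 16-fold lower. At 8-fold the numbers were 305 and 413, and at 64-fold 10 and 5. Many sequences lay near the limit. There were 454 between 3- and 4-fold higher and 217 between 4- and 5-fold higher, with 777 and 393 in the lower direction. The exact 95% interval of the ratio (Clopper-Pearson) lay wholly beyond 4-fold for 380 of the 762 and 571 of the 1242.

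**Figure D1:**
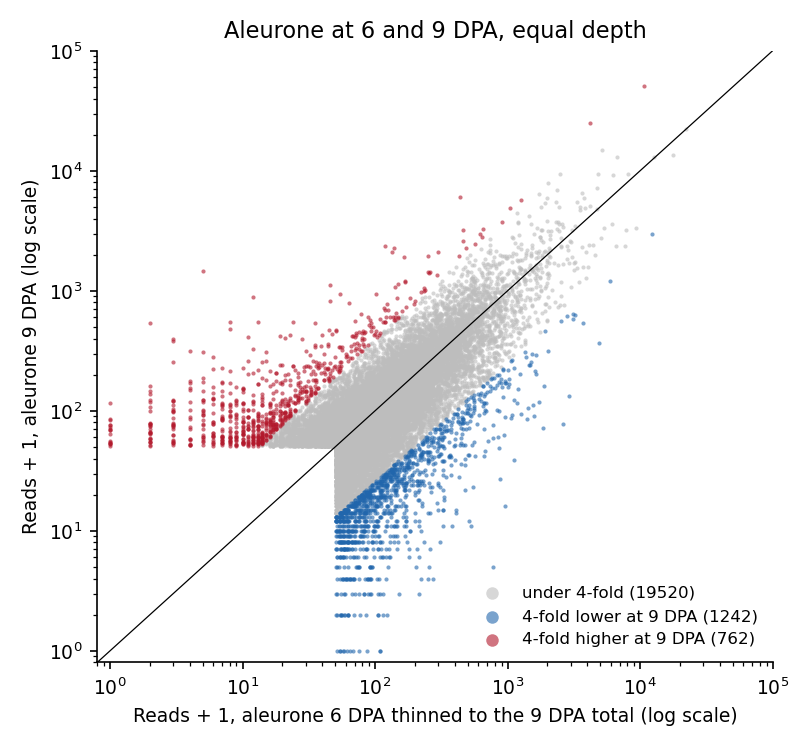
Reads per sequence in aleurone at 6 DPA (x axis, thinned to the 9 DPA total) and at 9 DPA (y axis), both plus 1 and on log scales, for the 21524 sequences with 50 or more reads in either library. Each point is 1 sequence, red for the 762 at least 4-fold higher and blue for the 1242 at least 4-fold lower at 9 DPA, and most points lie along the line of equal reads.

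The sequences that differed carried a small part of the aleurone RNA. The 762 higher ones held 0.982% of all reads at 6 DPA and 5.81% at 9 DPA, with a median level of 3.26 and 21.8 RPM. The 1242 lower ones held 6.61% at 6 DPA and 1.04% at 9 DPA, with a median of 24.4 and 3.74 RPM. The remaining 19520 held 76.5% and 77.2%. These shares follow from how the sets were chosen and are given as their size.

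The share of sequences that differed was not confined to weakly expressed ones. In classes that start at 50, 100, 200 and 500 reads in the higher library, it was 9.99%, 8.21%, 8.55% and 10.4%. It was 14.0% of 499 sequences with 1000 or more but under 5000 reads and 17.6% of the 34 with 5000 or more. The lower direction held more sequences in every class except the last, where 4 were higher and 2 lower. At high read numbers a 4-fold difference exceeds counting error by far, so that class rests on few sequences but on many reads.

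**Figure D2:**
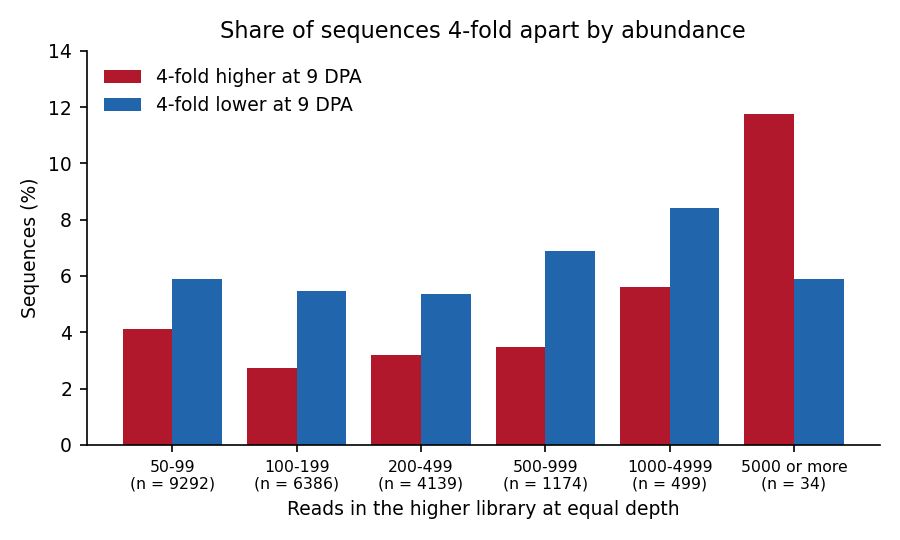
Percent of sequences (y axis) at least 4-fold higher (red) or lower (blue) at 9 than at 6 DPA in aleurone, by the reads of the higher library at equal depth (x axis, number of sequences in brackets). The blue bars exceed the red ones below 5000 reads, and the class of 5000 or more holds 34 sequences.

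Most of the sequences at the top of the abundance order at 6 DPA stayed near it at 9 DPA. The 100 most abundant of each stage held 8.76% of the reads at 6 DPA and 11.1% at 9 DPA, and 56 were among the 100 at both stages. The 100 of 6 DPA held 9.01% of the 9 DPA reads. Of the 10 most abundant, 6 were shared. Among the 100 of 6 DPA, 59 stayed within 2-fold, 12 were at least 4-fold lower and 2 at least 4-fold higher at 9 DPA. The most abundant sequence of the 6 DPA aleurone had 6413 RPKM at 6 DPA and 6443 RPKM at 9 DPA. The most abundant sequence of the 9 DPA aleurone had 2976 RPKM at 6 DPA and 13819 RPKM at 9 DPA, and its share of all reads went from 0.240% to 1.11%.

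Where the higher library had 1000 reads or more, 32 of 533 sequences were at least 4-fold higher and 44 at least 4-fold lower at 9 DPA. The median difference was 5.70-fold for the higher and 6.24-fold for the lower ones. The median level of the 32 was 60.3 RPM at 6 DPA, 462 RPM at 9 DPA and 4.04 RPM at 14 DPA in aleurone, against 1.77, 2.44 and 0.0667 RPM in starchy endosperm. Together they took 0.581%, 3.19% and 0.0908% of the aleurone reads at 6, 9 and 14 DPA, and 0.279% of the starchy endosperm reads at 6 DPA. In starchy endosperm 21 of the 32 stayed under 50 reads at equal depth, as did 12 of the 44 lower ones. Over all compared sequences, 8067 of 21524 (37.5%) did. Only 533 of the 21524 had 1000 reads or more, and the share among those 533 was not computed. The median of the 44 lower ones was 334 RPM at 6 DPA, 47.0 RPM at 9 DPA and 94.9 RPM at 14 DPA in aleurone, and 149, 21.9 and 52.6 RPM in starchy endosperm. A set chosen for a high or a low value at 9 DPA tends to show a peak or a dip there, and a set chosen on aleurone reads tends to be high in aleurone, so these are given as levels only.

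The 3 most abundant sequences of each direction, chosen after their values were seen, are described without identifiers. The first of the higher ones (806 bases) was the most abundant sequence of the 9 DPA aleurone, and its ratio of 9 to 6 DPA was 4.72 (exact 95% interval 4.63 to 4.82). It fell to 4.81 RPKM in the 14 DPA aleurone and had 12.8, 0.907 and 0.066 RPKM in starchy endosperm at 6, 9 and 14 DPA. The second (666 bases) had 1379 RPKM at 6 DPA, 8278 RPKM at 9 DPA and 0.951 RPKM at 14 DPA in aleurone. The third (849 bases) had 112 RPKM, 1562 RPKM and 0.186 RPKM at the same stages. Both had at most 6.68 RPKM in any starchy endosperm library. Each of the 3 was thus far higher in aleurone than in starchy endosperm at 6 and 9 DPA, and under 5 RPKM in aleurone at 14 DPA.

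Of the lower ones, the most abundant (1291 bases) had 2080 RPKM at 6 DPA, 509 RPKM at 9 DPA and 0.388 RPKM at 14 DPA in aleurone, and at most 1.32 RPKM in starchy endosperm. Its ratio of 6 to 9 DPA was 4.10 (interval 3.94 to 4.27), but only 6.02% of its 6 DPA reads were unique, and on unique reads the ratio was 2.23, short of 4-fold. The second (1063 bases) went from 1213 to 248 to 0.447 RPKM in aleurone. Only 0.109% of its 6 DPA reads and 0.999% of its 1201 reads at 9 DPA were unique, so its fall rests almost wholly on shared reads. On unique reads it was 2.17-fold higher at 9 DPA. That value rests on very few reads and has no interval, so it cannot settle the direction. The third (614 bases) went from 1764 to 130 RPKM and stood at 919 RPKM at 14 DPA in aleurone. In starchy endosperm it had 398, 438 and 429 RPKM, with no such dip at 9 DPA, and on unique reads its aleurone ratio of 6 to 9 DPA was 7.38. Of these 3 lower sequences, only the third was thus 4-fold lower on unique reads as well.

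The starchy endosperm of the same stages gave a second pair of libraries that shares no library with the aleurone pair. With all 4 libraries at 4104682 reads, 9.14% of 20028 sequences were at least 4-fold apart in aleurone and 25.4% of 19325 in starchy endosperm. The median absolute log2 ratio was 0.64 in aleurone and 1.12 in starchy endosperm, and 68.8% and 45.5% of sequences stayed within 2-fold. With 1 library per tissue and stage the difference between tissues was not tested. The log2 ratios of the tissues correlated at r = 0.449 (rho 0.379) across 12923 sequences. The libraries of a stage also share their depth class and unique share, so stage and any handling common to a stage cannot be told apart.

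**Figure D3:**
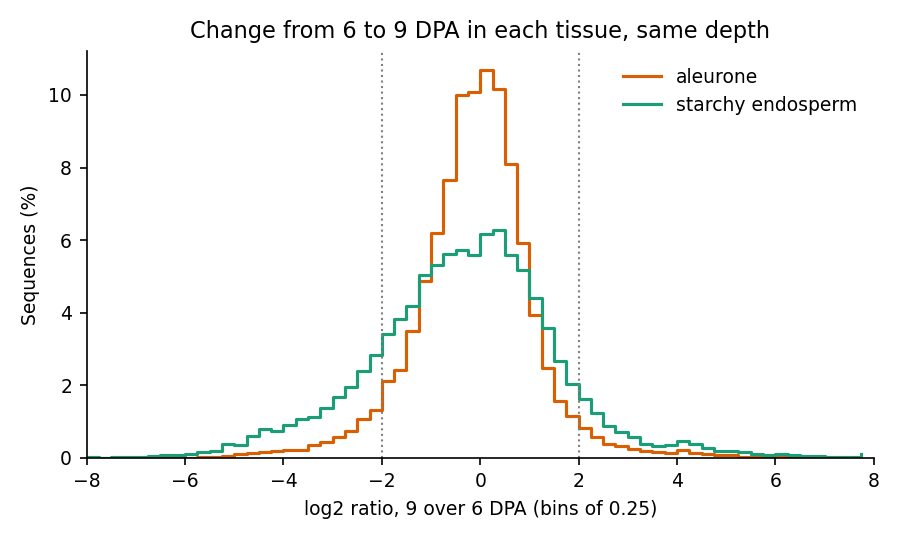
Distribution of the log2 ratio of 9 to 6 DPA (x axis, bins of 0.25) over sequences with at least 50 reads, in percent of sequences (y axis), for aleurone and starchy endosperm with all libraries at 4104682 reads. Dotted lines mark 4-fold, beyond which lie 9.14% of the aleurone and 25.4% of the starchy endosperm sequences.

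Of the sequences lower at 9 DPA in aleurone, a large part was also lower in starchy endosperm. Starchy endosperm had enough reads for 795 of the 1242, and 479 of these (60.3%) were at least 4-fold lower at 9 DPA there too. Over all 13457 sequences with enough reads in both tissues, 15.1% were 4-fold lower in starchy endosperm. The 479 are 23.5% of the sequences that were 4-fold lower in starchy endosperm and had enough reads in aleurone. Their median in aleurone was 28.8 RPM at 6 DPA, 3.96 RPM at 9 DPA and 17.8 RPM at 14 DPA. In starchy endosperm it was 36.9, 3.65 and 7.12 RPM. A low median at 9 DPA follows from the choice of these sequences, which required it in both tissues. Another 307 differed under 4-fold in starchy endosperm, where their median was 25.9 RPM at 6 DPA and 18.5 RPM at 9 DPA. The remaining 447 with under 50 reads in starchy endosperm went from 17.97 to 3.08 RPM in aleurone and stood at 5.33 RPM at 14 DPA.

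Of the 762 sequences higher at 9 DPA in aleurone, 497 (65.2%) had under 50 reads in starchy endosperm at both stages at equal depth, against 37.5% of all compared sequences. Their median in aleurone was 2.91 RPM at 6 DPA, 19.6 RPM at 9 DPA and 1.002 RPM at 14 DPA, and at most 1.71 RPM in a starchy endosperm library. They held 0.732%, 4.25% and 0.206% of the aleurone reads at 6, 9 and 14 DPA. Of the other 265, 95 (35.8%) were also 4-fold higher in starchy endosperm, against 3.38% over all sequences with enough reads in both tissues. The 95 went from 1.95 to 24.6 RPM in aleurone and from 3.83 to 40.4 RPM in starchy endosperm. At 9 DPA they took 6.03% of the reads in starchy endosperm and 0.452% in aleurone. The last group, of 151 under 4-fold in starchy endosperm, stood there at 20.01 RPM at 6 DPA and 27.0 RPM at 9 DPA.

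**Figure D4:**
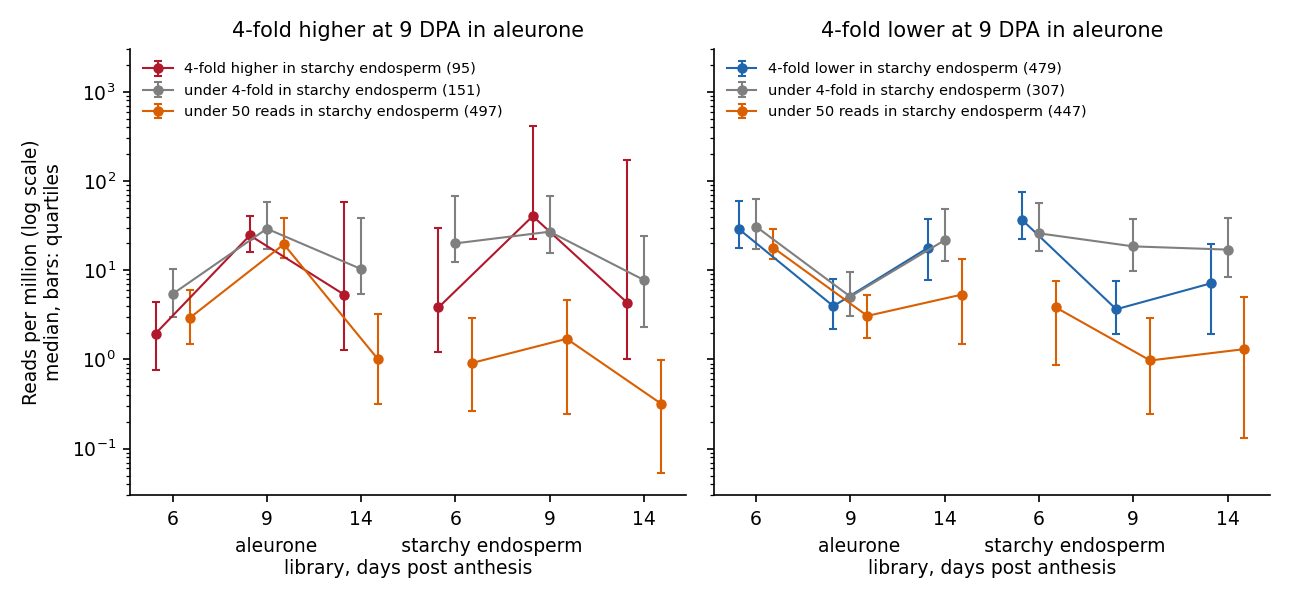
Median level in RPM (y axis, log scale, bars from the lower to the upper quartile over sequences) in each of the 6 libraries (x axis) for the sequences 4-fold higher (left) and 4-fold lower (right) at 9 DPA in aleurone, by what they did in starchy endosperm from 6 to 9 DPA. The 479 sequences lower in both tissues (blue) have their lowest median at 9 DPA in each tissue, where they were chosen to be low, and the 497 with few starchy endosperm reads (orange, left) are highest in the 9 DPA aleurone, for which they were chosen.

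Of the 713 sequences high in 14 DPA starchy endosperm, 52 were compared, and 5 (9.62%) were higher and 7 (13.5%) lower at 9 DPA in aleurone, against 3.54% and 5.77% over all. These 5 held 0.0307% of the 9 DPA aleurone reads. Of the 646 high in 14 DPA aleurone, 233 were compared, and 11 (4.72%) were higher and 18 (7.73%) lower. The tissue preference of both sets at 14 DPA was then read from libraries that the comparison does not use. Of the 481 higher ones with enough reads at 14 DPA, 23.7% were 4-fold higher in aleurone and 18.1% 4-fold higher in starchy endosperm, against 15.3% and 4.87% of all compared sequences. Of 1130 lower ones, 21.4% and 6.64% were. Scaled by library totals these were 33.5% and 13.7% for the higher set, 34.3% and 3.89% for the lower set, and 24.9% and 2.60% for all. Under both scalings the share of sequences with a 4-fold preference, for either tissue, was thus above that of all compared sequences in the higher set and in the lower set. These differences were not tested.

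Sequences that share their reads with others differed more often. The unique share of each sequence was taken from the 14 DPA libraries. Among sequences with under 10% unique reads, 11.1% were 4-fold higher and 19.7% 4-fold lower at 9 DPA in aleurone. With 50 to 89% unique reads the shares were 2.45% and 2.60%, and with at least 90% they were 2.41% and 3.26%. The surplus of lower sequences lay largely among those with under 50% unique reads, at 455 higher and 887 lower of 9427. Among 12004 sequences with at least 50% unique reads, 293 were higher and 338 lower. In starchy endosperm, the class under 10% held 18.5% higher and 32.5% lower, and the class of at least 90% held 7.995% and 14.4%. The median unique share was 20.5% for the 479 sequences lower in both tissues and 56.7% for all compared sequences. How shared reads were divided in the authors' counting is not stated in the labels, and its part in the differences was not tested.

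**Figure D5:**
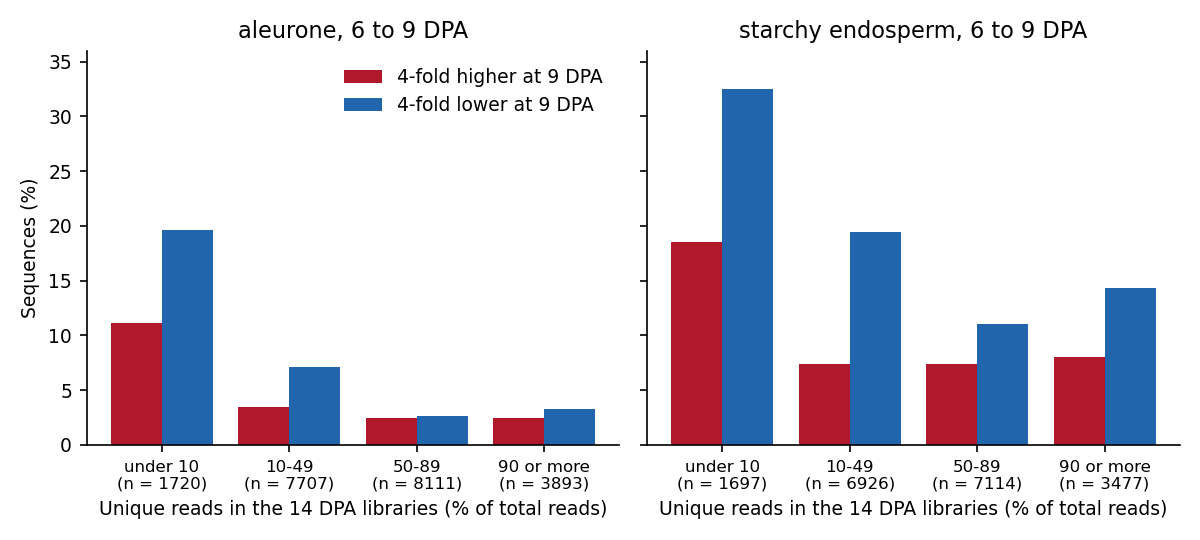
Percent of sequences (y axis) at least 4-fold higher (red) or lower (blue) at 9 than at 6 DPA in aleurone (left) and starchy endosperm (right), by the share of their 14 DPA reads that was unique (x axis, number of sequences in brackets). Sequences with under 10% unique reads differed most often in both tissues, with 19.7% of them lower in aleurone and 32.5% lower in starchy endosperm.

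On unique reads alone, 413 sequences were 4-fold higher and 542 lower at 9 DPA. Of the 762 higher ones, 279 had enough unique reads to be compared, and 239 of these were again 4-fold higher. Of the 1242 lower ones, 378 could be compared and 296 were again 4-fold lower. None (0) of either set was 4-fold apart in the opposite direction. Unique reads are part of the total reads of the same 2 libraries, so this overlap is partly built in and is no independent check. The rest of the 413 and of the 542 were not in the reported sets of 762 and 1242.

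The sets also differed from the compared sequences in length and kind. The median length was 725.5 bases for the higher and 783 bases for the lower ones, against 890 bases for all. Of sequences of at least 1200 bases, 1.57% were higher and 3.03% lower, and of those under 500 bases 8.19% and 5.77%. Identifiers beginning with TC were 58.4% of the higher set, 80.8% of the lower set and 84.8% of all compared. Among the 3273 compared sequences with other identifiers, 9.69% were 4-fold higher at 9 DPA, against 2.44% of the 18251 with TC. These other identifiers were shorter, at a median of 587 bases against 967.

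The named sequences have the highest lower limit of the ratio in their direction among those 4-fold apart on both total and unique reads, 239 candidates higher and 296 lower. TC451516 (618 bases) was the furthest apart of the higher ones. It had 2.92 RPKM at 6 DPA, 521 RPKM at 9 DPA and 0.256 RPKM at 14 DPA in aleurone, and 25.8, 241 and 0 RPKM in starchy endosperm. It was high in both tissues at 9 DPA and in neither at 14 DPA. At equal depth it had 4 reads at 6 DPA and 1466 at 9 DPA, a ratio of 368 (interval 143 to 1353). This log2 ratio of 8.52 lay above those of the 9 other thinnings, which ran from 7.07 to 7.72. At full depth, with 49 reads at 6 DPA, the ratio of RPM was 179 (interval 134 to 242), and only 244 of its 9 DPA reads were unique.

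BE430326 (680 bases) was an aleurone sequence at 9 DPA. It had 1.68 RPKM at 6 DPA, 174 RPKM at 9 DPA and 0.078 RPKM at 14 DPA in aleurone, against 0, 8.96 and 4.71 RPKM in starchy endosperm. Its thinned 6 DPA count was 1 read against 537 at 9 DPA, which makes an equal-depth interval of 96.4 to 21344. The full 6 DPA library had 31 reads, for a ratio of 103 (interval 72.0 to 154). Of its 9 DPA reads, 465 were unique.

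TC440251 (496 bases) had 420 RPKM at 6 DPA, 6.65 RPKM at 9 DPA and 67.0 RPKM at 14 DPA in aleurone. In starchy endosperm it had 174, 75.6 and 320 RPKM, and the fall from 6 to 9 DPA was under 4-fold. Its ratio of 6 to 9 DPA in aleurone was 63.7 (interval 38.4 to 114), from 960 thinned reads against 15. Unique were 561 of its 5651 reads at 6 DPA and 1 read at 9 DPA. On unique reads, with the 9 DPA count set at 3, its log2 ratio of 9 to 6 DPA was -4.44, against -5.99 on total reads. CK153587 (791 bases) had 76.9, 0.834 and 85.1 RPKM in aleurone and 252, 5.24 and 69.5 RPKM in starchy endosperm at 6, 9 and 14 DPA. Its ratio of 6 to 9 DPA in aleurone was 90.6 (interval 30.7 to 442), from 273 reads against 3. Unique were 447 of its 1651 reads at 6 DPA and 0 at 9 DPA. On unique reads, with the 9 DPA count set at 3, its log2 ratio was -4.44, against -6.50 on total reads. CK153587 was low at 9 DPA in both tissues and present at 6 and 14 DPA in both. It is among the 479 sequences lower in both tissues. Their starchy endosperm median differed from this course, at 36.9, 3.65 and 7.12 RPM at 6, 9 and 14 DPA. All 4 named sequences are single values of 1 library per stage.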

How the data were processed

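RNA was read from the aleurone and starchy endosperm of developing grain. Per the labels' protocols, the RNA went through linear amplification, poly(A) removal with a restriction enzyme and 15 cycles of PCR before Genome Analyzer IIx sequencing. Mapper, settings and version of the sequence set: not given in the sources used here. The deposited files give counts of total and unique reads per sequence, not normalized, and RPKM by the authors, which equals total reads over length and library total to within 5e-04. A transformed score, per the file headers of the 6 DPA libraries, was not used.

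Total counts of the 6 DPA aleurone library were thinned without replacement (seed 1) to the 9 DPA total. Ratios were scaled by TMM (edgeR 4.0.16, R 4.3.3), with counts under 3 set at 3. Sequences with at least 50 reads in either library were compared, and 4-fold was the limit. Starchy endosperm was treated alike. Exact intervals used scipy 1.17.1. No test was made, with 1 library per group. Unique reads, scaling (DESeq2 1.42.0 size factors), minima, limits and 9 other thinnings were alternatives. The counting code was checked on simulated counts with large set changes in abundant sequences and counting error only. That check does not cover shared reads, differences between libraries, TMM scaling or changes near 4-fold. The comparison, lists and rules were chosen with earlier results of these data known. Named sequences are the 2 per direction with the highest lower 95% limit of the ratio among those 4-fold apart on total and unique reads. Marker lists written for annotated genes were not used, since 0 identifiers matched the reference gene table.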

Additional observations from a re-analysis of the deposited data

Results flagged for a closer look

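A few sequences moved in opposite directions in the tissues between 6 and 9 DPA. There were 19 that were at least 4-fold higher at 9 DPA in aleurone and at least 4-fold lower in starchy endosperm, and 9 that did the reverse. The 19 are 7.17% of the 265 higher ones with enough reads in starchy endosperm, where 15.1% of all such sequences were 4-fold lower. The 9 are 1.13% of 795, against 3.38% higher over all, so both shares lie below the overall one. They are listed because the library pair of each tissue moved the opposite way, and the difference was not tested, since each tissue and stage has 1 library. The 19 had a median of 8.91 RPM at 6 DPA and 47.5 RPM at 9 DPA in aleurone, and of 46.2 and 8.53 RPM in starchy endosperm. The 9 went from 17.3 to 2.42 RPM in aleurone and from 6.54 to 29.2 RPM in starchy endosperm. Median unique shares at 14 DPA were 16.8% for the 19 and 33.1% for the 9, below the 56.7% of all compared sequences.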

How the results depend on the processing

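The count of 2004 sequences (762 higher, 1242 lower) stayed within 1.5 times under library totals, size factors, 9 other thinnings (1953 to 2001), 1 added read, removal of the 100 most abundant sequences, and a length of at least 300 bases. Of the sets reported, 647 to 669 higher and 1041 to 1066 lower sequences were found again in each other thinning. On unique reads the count was 955 (413 and 542). With a minimum of 20 reads it was 4351 (1935 and 2416), and with 200 reads 552 (205 and 347). A 2-fold limit gave 6757 (2723 and 4034) and an 8-fold limit 718 (305 and 413). At full depth with a minimum on reads it was 5031, of which 4435 were lower and 11.8% higher, against 38.0% higher in the reported count. With the minimum on RPM, 26.9% of 2148 were higher with TMM and 37.6% of 1906 with library totals. At full depth, totals in place of TMM moved all log2 ratios up by 0.23, and on unique reads they moved them by -0.12. The full-depth fit with library totals was added after seeing the data. The share of 9 DPA reads held by the higher set (5.81%) was 6.80% on unique reads, 6.57% and 4.70% at minima of 20 and 200 reads, and 5.85% to 6.14% over the other thinnings. The share of thinned 6 DPA reads held by the lower set (6.66%) was 4.24%, 7.45%, 4.77% and 6.40% to 6.69% in the same order, and 6.71% with library totals. The causes were not tested. The log2 ratios of the named sequences kept their sign in all 24 values computed, of which 7 left the exact interval. Their sign on unique reads was fixed by the rule that named them, and the other settings reuse the same libraries, so the kept sign is no independent check. No paired analysis was possible because each tissue and stage has 1 library. Depth limits the comparison to sequences of about 11.0 RPM or more in 1 of the libraries.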
